A study of Mus musculus with 3 samples.

Results

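Endothelial cells (ECs) display a small set of surface proteins that slow, hold and admit circulating cells. The 8 genes of this set described here were Selp and Sele (selectins), Vcam1, Icam1 and Icam2 (ligands of leukocyte integrins), and Cd34, Podxl and Emcn (sialomucins, heavily glycosylated proteins of the luminal surface). They were taken by symbol, as 8 of the 32285 genes measured, and all 8 had UMIs. UMIs are the barcoded tags by which single RNA molecules were counted.

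Circulating leukocytes first tether to selectins, then arrest on integrin ligands, and then pass between or through ECs. P-selectin, the product of Selp, lies ready in secretory granules of ECs and of platelets, whereas E-selectin (Sele) and most Vcam1 are made after inflammatory cytokines reach the vessel. In most tissues this traffic uses the venules behind the capillaries, and in the lung leukocytes are also held in the capillary bed itself.

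The data were 3 single-cell libraries of lung ECs from wild type (WT) C57BL/6 mice, sorted as Pecam1 positive and Ptprc negative cells after warm collagenase digestion. Control mice received PBS and were taken after 6 h. The other mice received 200000 B16-F10 cells, a pigmented melanoma line of the same strain, in the tail vein and were taken after 6 h or 30 h. The labels give 2 mice per treatment, while the study's methods give a larger number of pooled mice for its later experiments, so how many mice stand behind each library is not settled. Each group was 1 library, and by the labels the 6 h library also received sorted melanoma cells that carried a dye. No PBS library taken at 30 h was analysed here, so both melanoma libraries were set against the same 6 h control. With 1 library per group there was no replicate error and no test. At 6 h, treatment, mouse and library cannot be told apart, and at 30 h time cannot be told apart from them either. All intervals below are at 95% and cover counting error only.

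Barcodes counted as endothelial when they held 1000 to 5000 detected genes, under 20% mitochondrial UMIs and at least 2 UMIs of Pecam1 and Cdh5 together. Barcodes with at least 5 UMIs of the platelet genes Pf4 and Ppbp were set apart, which took out 436 control barcodes, 522 at 6 h and 481 at 30 h. This left 10795, 10061 and 8797 ECs, with a median of 7759, 8001 and 8667 UMIs. Vessel classes were gated on marker genes that include none of the 8 members and were general capillary (gCap-like, 7440, 7196 and 5563 barcodes), aerocyte (aCap-like, the capillary cells of gas exchange, 2030, 1659 and 1965), artery-like (357, 386 and 433) and vein-like (620, 476 and 488). The labels were checked on markers kept out of the gates. Nr2f2, a regulator of venous fate, stood at 438, 439 and 488 CPM (counts per 1000000 UMIs) in vein-like barcodes and at no more than 35.9 CPM in any other class. Car4, an aerocyte gene, stood in aCap-like barcodes at 1571, 1384 and 2244 CPM against at most 228 CPM elsewhere. Efnb2, an arterial ligand, stood at 1052, 857 and 1213 CPM in artery-like barcodes against 521, 509 and 577 CPM in gCap-like barcodes. Sox17, chosen as an arterial marker, did not set the artery-like class apart, at 275, 239 and 341 CPM against 285, 283 and 292 CPM in gCap-like barcodes. Artery-like barcodes also held RNA of other cells: 4 markers of alveolar type 2 and club cells summed to 6019, 3125 and 3894 CPM and 5 leukocyte markers to 679, 507 and 34.0 CPM, and the part of that RNA in artery-like values was not tested except where given below. Of the 3 gCap markers, Cd93 and Hpgd were about as high in vein-like as in gCap-like barcodes. Sema3g stood at 227, 223 and 314 CPM in gCap-like against 25.2, 23.1 and 27.2 CPM in vein-like barcodes, but was higher still in artery-like barcodes, at 376, 332 and 572 CPM. LEC-like barcodes numbered 46, 40 and 39 and gave no values by library.

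The promoters of 3 members that were higher at 6 h are shown with that of Emcn, the member that was lower there, because transcription factors of the NF-kB and AP-1 families are known to act on selectin and Icam1 promoters in inflamed endothelium. Each line gives the 250 bases before the RefSeq start site on GRCm38.p6, read 5′ to 3′ on the + strand, at chr1:164047984-164048233 for Sele, chr1:164115014-164115263 for Selp, chr9:21015690-21015939 for Icam1 and chr3:137340828-137341077 for Emcn. Capitals mark matches to a motif on either strand.
Sele: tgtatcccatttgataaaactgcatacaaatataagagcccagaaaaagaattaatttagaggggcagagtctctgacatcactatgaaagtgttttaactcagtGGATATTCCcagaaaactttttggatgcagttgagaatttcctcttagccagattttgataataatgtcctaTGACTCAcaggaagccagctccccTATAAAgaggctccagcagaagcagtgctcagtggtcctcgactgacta
Selp: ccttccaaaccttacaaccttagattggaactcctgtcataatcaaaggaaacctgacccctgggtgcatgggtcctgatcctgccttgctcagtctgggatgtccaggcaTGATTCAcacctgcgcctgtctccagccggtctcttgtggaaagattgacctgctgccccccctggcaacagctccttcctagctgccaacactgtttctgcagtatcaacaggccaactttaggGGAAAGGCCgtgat
Icam1: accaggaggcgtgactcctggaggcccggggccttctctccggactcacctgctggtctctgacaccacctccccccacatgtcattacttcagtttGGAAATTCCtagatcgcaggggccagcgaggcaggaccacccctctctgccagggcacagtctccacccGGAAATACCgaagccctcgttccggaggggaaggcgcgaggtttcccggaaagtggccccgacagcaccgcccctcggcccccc
Emcn: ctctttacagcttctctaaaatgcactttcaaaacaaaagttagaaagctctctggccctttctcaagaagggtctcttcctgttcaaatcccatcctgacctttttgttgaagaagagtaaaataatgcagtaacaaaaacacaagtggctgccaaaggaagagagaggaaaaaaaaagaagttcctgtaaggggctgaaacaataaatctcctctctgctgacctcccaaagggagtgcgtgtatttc

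The motifs searched on both strands were GGGNNTTCC (NF-kB) and a form of it with 1 more N, TGANTCA (AP-1), the interferon response element and TATAAA, with the shorter core GGNNNTTCC added after the sequences had been seen. Neither longer NF-kB motif and no interferon response element matched in any of the 5 member promoters, so each NF-kB match below is to the shorter core alone. The shorter core contains every match of both longer NF-kB motifs. The Sele promoter held GGATATTCC at 145 to 137 bases before the start, TGACTCA at 73 to 67 bases and TATAAA at 49 to 44 bases. In the Selp promoter, TGATTCA lay at 139 to 133 bases and GGAAAGGCC, a match on the − strand, at 14 to 6 bases. The Icam1 promoter held GGAAATTCC at 153 to 145 bases, a match on both strands, and GGAAATACC on the − strand at 84 to 76 bases. Neither Emcn nor Cd34 (chr1:194938571-194938820) matched any of them. Of 32817 promoters of this length, 15.7% held GGNNNTTCC, 6.75% TGANTCA, 12.4% TATAAA, 4.97% GGGNNTTCC, 4.65% the form with 1 more N and 2.97% the interferon response element. A match is a run of letters and not a measured binding site. Promoters were matched by symbol for 5 of the 8 members, and those of Vcam1, Icam2 and Podxl were not analysed here.

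Over all ECs the members fell into different patterns. Sele and Selp were higher at 6 h than in the control library, by 13.1-fold and 1.92-fold, and Selp then stood below control at 30 h. Icam1 and Vcam1 followed the same order at smaller size. Icam2, Cd34 and Podxl were highest at 30 h, and Emcn was lowest at 6 h and highest at 30 h.

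**Figure D1:**
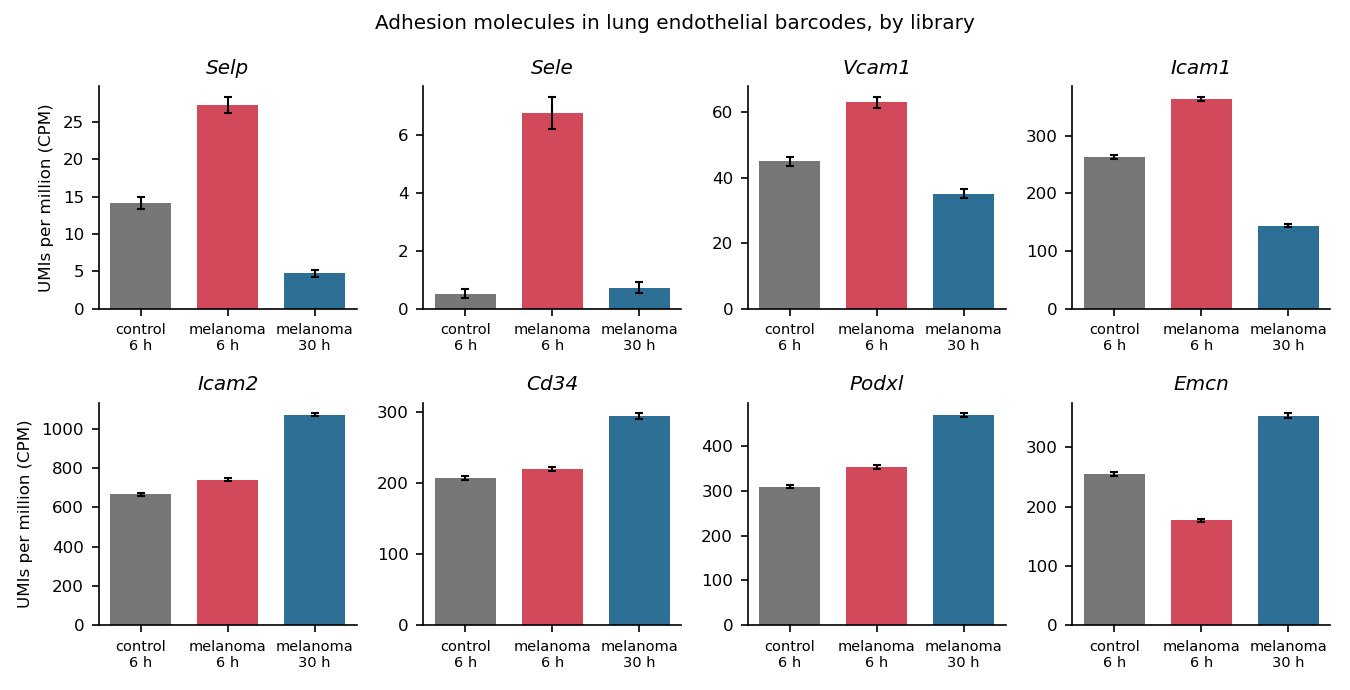
CPM (y axis, each panel from 0 on its own scale) of the 8 genes in all endothelial barcodes of the 3 libraries (x axis), with bars for summed levels and lines for exact Poisson intervals. Selp, Sele, Vcam1 and Icam1 peak in the 6 h melanoma library, Icam2, Cd34 and Podxl are highest at 30 h, and Emcn is lowest at 6 h.

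Selp (ENSMUSG00000026580, chr1:164115264-164150026, + strand, GRCm38) stood at 14.2 CPM in control ECs, at 27.3 CPM after 6 h and at 4.71 CPM after 30 h, from 1236, 2254 and 364 UMIs. The 3 intervals did not overlap. In these sums, fewer barcodes of a vessel class and less RNA per barcode cannot be told apart, and with class shares set to those of the control library the 6 h log2 ratio below was 1.27. The log2 ratio to control was 0.94 (0.84 to 1.04) at 6 h and -1.59 (-1.77 to -1.42) at 30 h, and from 6 h to 30 h Selp fell by 2.53 on the log2 scale. The value at 6 h depended on the limit on detected genes: when 300 genes sufficed and the upper limit was lifted it was 0.53, which is under 1.5-fold. Barcodes above 5000 genes held 1117, 860 and 262 Selp UMIs, at 35.6, 32.8 and 10.7 CPM, so that among them the 6 h library was not above control.

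Sele (ENSMUSG00000026582, chr1:164048234-164057677, + strand) was rare, with 45, 558 and 54 UMIs in the control, 6 h and 30 h libraries, or 0.516, 6.75 and 0.698 CPM. Only the 6 h library stood apart, at a log2 ratio of 3.71 (3.27 to 4.18) to control. This ratio was 2.40 when 300 genes sufficed and the upper limit was lifted, and 4.21 without the highest barcode of each library. The 30 h library did not differ from control beyond counting error, with a log2 ratio of 0.43 (-0.16 to 1.04), and this value changed sign to -0.80 with the wider limit on detected genes. Its mean level was under 5 CPM, so Sele was left out of the count of genes past 1.5-fold.

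Vcam1 (ENSMUSG00000027962, chr3:116109949-116129688, − strand), the ligand that holds lymphocytes and monocytes, stood at 45.1, 63.1 and 35.2 CPM in control, 6 h and 30 h ECs. The log2 ratio to control was 0.49 (0.43 to 0.55) at 6 h and -0.36 (-0.43 to -0.29) at 30 h, both under 1.5-fold. With class shares set to those of the control library, the 6 h ratio of Vcam1 passed 1.5-fold, at 0.70. Icam1 (ENSMUSG00000037405, chr9:21015985-21028817, + strand), the inducible ligand of leukocyte integrins, stood at 263 CPM in control ECs, 364 CPM after 6 h and 144 CPM after 30 h. The log2 ratio was 0.47 (0.45 to 0.50) at 6 h and -0.87 (-0.90 to -0.84) at 30 h, and between the melanoma libraries it fell by 1.34 on the log2 scale. Thus Icam1 at 30 h was at 0.547 of its control level, the lowest ratio of the integrin ligands at that time.

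Icam2 (ENSMUSG00000001029, chr11:106377656-106388075, − strand), a ligand that resting endothelium carries at all times, was above control at both times, unlike Icam1 and Vcam1 at 30 h. It stood at 666, 742 and 1073 CPM, which is 1.11-fold control at 6 h and 1.61-fold at 30 h. The sialomucins Cd34 and Podxl shared this order. Cd34 (ENSMUSG00000016494, chr1:194938819-194961279, + strand) stood at 207, 220 and 295 CPM. Podxl (ENSMUSG00000025608, chr6:31519488-31563981, − strand), which encodes podocalyxin, a charged coat protein that keeps membranes apart, stood at 310, 353 and 469 CPM. At 30 h the log2 ratio to control was 0.69 for Icam2, 0.51 for Cd34 and 0.60 for Podxl, the last just past 1.5-fold. Podxl was just under it, at 0.58, when each cell was weighted equally, and at 0.54 without barcodes that held RNA of other cells.

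Emcn (ENSMUSG00000054690, chr3:137341067-137432185, + strand) encodes endomucin, a sialomucin of capillaries and veins known to hinder leukocyte adhesion. It was the member of lowest ratio at 6 h, at 255 CPM in control, 177 CPM at 6 h and 354 CPM at 30 h. The log2 ratio was -0.53 (-0.56 to -0.50) at 6 h and 0.47 (0.45 to 0.50) at 30 h, and the 30 h library stood 2.00-fold above the 6 h library. The size at 6 h was just under 1.5-fold.

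Beside all genes, 7 members passed the filter of a mean of at least 5 CPM. At 6 h, 1 of the 7 (Selp) was at least 1.5-fold above control, where 2.08% of 10164 genes were, and none was as far below, where 1.38% were. At 30 h, Icam2 and Podxl were above control by that size (4.88% of genes) and Selp and Icam1 below it (5.0%). From 6 h to 30 h, Emcn was higher (5.25% of genes) and Selp, Vcam1 and Icam1 were lower (5.23%). The median log2 ratio of the 7 was 0.19 at 6 h and 0.47 at 30 h, against -0.01 and -0.07 over all genes. Between the melanoma libraries it was 0.41 over these 7 and -0.21 over all 8, so that its sign rests on whether Sele is counted.

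Some other measures moved with these levels, and their part in the result was not tested. The 6 genes known to respond to tissue digestion (Fos, Jun, Egr1, Atf3, Hspa1a and Hspa1b, all with UMIs in every library) summed to 5050 CPM in control ECs, 6896 CPM at 6 h and 3441 CPM at 30 h, the order of Icam1, Vcam1 and Selp. The 5 leukocyte markers, all with UMIs in every library, summed to 74.7, 97.3 and 53.4 CPM, also in that order. The 4 melanoma markers summed to 1.06, 13.9 and 0.956 CPM, with 1 marker at 0 in the control and 30 h libraries. Droplets with 10 to 100 UMIs, which hold free RNA, gave Icam1 at 189, 278 and 117 CPM and Emcn at 212, 148 and 283 CPM, the same order as in ECs.

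By vessel class, most Selp was found in vein-like barcodes. These made up 5.74%, 4.73% and 5.55% of ECs and held 71.4%, 70.9% and 51.9% of all Selp UMIs. Their Selp level was 143 CPM in control, 330 CPM at 6 h and 37.0 CPM at 30 h, a log2 ratio to control of 1.20 (1.08 to 1.32) at 6 h and -1.95 (-2.19 to -1.72) at 30 h. Barcodes that passed the gates of several classes held a further 23.1%, 21.8% and 34.6% of Selp UMIs. In artery-like barcodes Selp stood at 6.02, 11.1 and 6.28 CPM, with overlapping intervals. In gCap-like barcodes it stood at 0.749, 1.98 and 0.430 CPM and in aCap-like barcodes at 0.247, 0.597 and 0.142 CPM, below the 4.56, 20.2 and 6.45 CPM of the droplets with 10 to 100 UMIs. Artery-like Selp stood above both capillary classes beyond counting error in every library. It too lay below the droplets at 6 h and 30 h, but with overlapping intervals. The droplet values rested on 4, 14 and 17 UMIs, and the part of free RNA in the artery-like and capillary values was not tested. Some marker sums in vein-like barcodes were highest at 6 h, as Selp was, and their part in the Selp values was not tested. The 5 platelet markers (Gp1bb at 0 at 6 h and 30 h) summed to 11.03 CPM in control, 20.02 CPM at 6 h and 16.5 CPM at 30 h, the 4 melanoma markers to 0.649, 18.4 and 1.18 CPM, and the 6 digestion genes to 7988, 9242 and 5303 CPM. The 4 fibroblast markers, all with UMIs in every library, summed to 68.3, 18.8 and 24.7 CPM and were highest in control.

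Vein-like Selp at 6 h was higher than in control both in the share of barcodes and in the UMIs that each held. At 2000 UMIs per barcode, 8.89% (6.76 to 11.4) of vein-like barcodes had a Selp UMI in control, 16.2% (13 to 19.8) at 6 h and 3.89% (2.36 to 6.01) at 30 h. Without thinning these were 17.6%, 25.4% and 14.1%, at median depths of 9870, 10192 and 10199 UMIs. A vein-like barcode with Selp held 8.10 Selp UMIs on average in control, 13.2 at 6 h and 2.74 at 30 h, and the highest held 95, 104 and 26. Barcodes under the endothelial gate, from which platelet-RNA barcodes were not taken out, had median depths of 2504, 2632 and 2770 UMIs. Their thinned share was 0 of 213 (up to 1.72%), 2.87% and 0 of 205 (up to 1.78%). Without thinning, 109 of 620 control barcodes and 69 of 488 barcodes at 30 h had Selp, so these shares lay closer together than the mean UMIs per positive barcode.

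**Figure D2:**
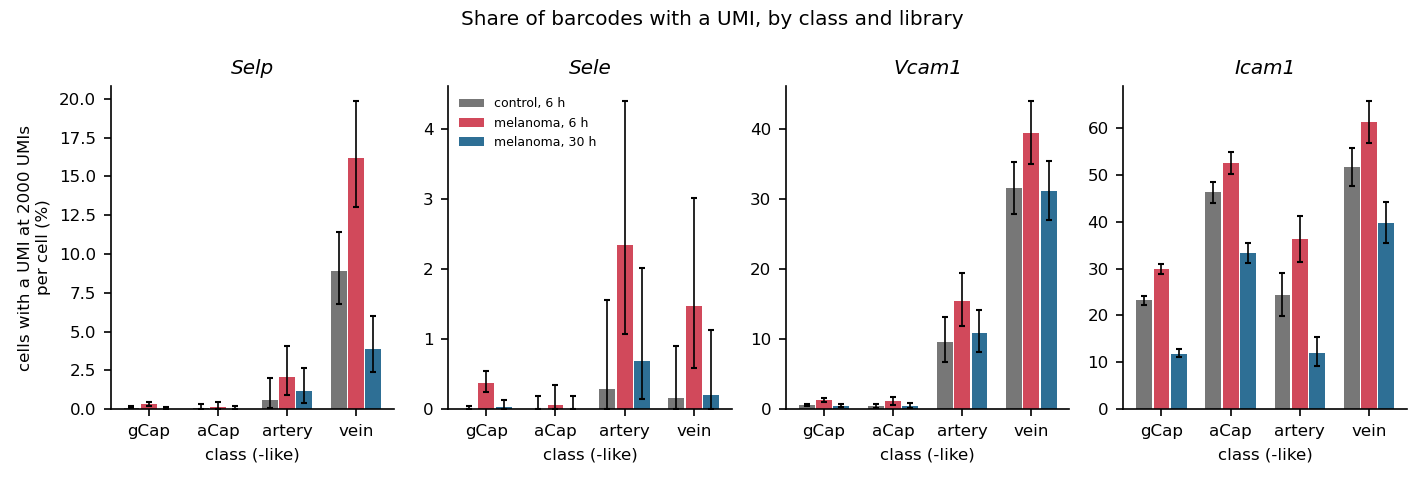
Share of barcodes with at least 1 UMI (y axis, percent, after thinning to 2000 UMIs per barcode) of Selp, Sele, Vcam1 and Icam1 by vessel class (x axis), with 1 bar per library and lines for exact Clopper-Pearson intervals. Selp and Vcam1 bars are tallest in the vein-like class, while Icam1 is present in every class and lower at 30 h in each.

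At 6 h, Sele was spread more evenly over the vessel classes than Selp. Of its 558 UMIs at 6 h, gCap-like barcodes held 36.4%, artery-like barcodes 30.5% and vein-like barcodes 21.7%. Its level was 2.85 CPM in control, 47.1 CPM at 6 h and 4.59 CPM at 30 h in artery-like barcodes, and 1.30, 25.0 and 3.53 CPM in vein-like barcodes. In gCap-like barcodes it went from 3 UMIs in control to 203 at 6 h and 15 at 30 h. These UMIs lay in few barcodes, 49 of the gCap-like, 15 of the artery-like and 12 of the vein-like at 6 h, of which the highest held 29, 65 and 34. Without the highest barcode of each library, Sele stood at 0, 29.3 and 2.17 CPM in artery-like barcodes of the control, 6 h and 30 h libraries. In vein-like barcodes it then stood at 0.162, 18 and 0.983 CPM. All 9 control UMIs of the artery-like class lay in 1 barcode. When barcodes with at least 2 UMIs of other-cell markers were taken out (Hopx, an alveolar gene that ECs also held, not counted), the artery-like log2 ratio at 6 h went from 4.05 to 3.04, from 9 and 78 UMIs. With Hopx counted, 76.3% of 6 h ECs were lost, 9 and 6 UMIs were left, and the ratio was -0.76. The droplets with 10 to 100 UMIs held 0, 0 and 1 Sele UMIs.

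Most Vcam1 UMIs, 68.7%, 64.8% and 59.0%, also lay in vein-like barcodes. Its vein-like level was 438 CPM in control, 698 CPM at 6 h and 314 CPM at 30 h, a log2 ratio of 0.67 (0.60 to 0.75) and -0.48 (-0.57 to -0.39). The 6 h ratio fell to 0.57, under 1.5-fold, without barcodes that held RNA of other cells, Hopx not counted. Artery-like barcodes had 85.0, 149 and 130 CPM. At 30 h, 154 of the 537 artery-like Vcam1 UMIs came from 1 barcode, and without the highest barcode of each library the log2 ratio there went from 0.61 to 0.29. In gCap-like barcodes Vcam1 stood at 4.06, 10.8 and 3.49 CPM. A single barcode held 55 of the 222 UMIs in control, and another held 146 of the 594 at 6 h. Without the highest barcode of each library the levels were 3.05, 8.12 and 3.17 CPM. The droplets with 10 to 100 UMIs had Vcam1 at 36.5, 57.6 and 39.4 CPM, above the gCap-like and aCap-like levels and also highest at 6 h, and the part of free RNA in the capillary values was not tested. At 6 h the gCap-like level exceeded the aCap-like one, 5.37 CPM, beyond counting error. In control barcodes the order of Vcam1 levels was vein-like, artery-like and then aCap-like and gCap-like, the last pair with overlapping intervals.

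Icam1 was present in every class. In control barcodes it stood at 638 CPM in vein-like, 405 CPM in aCap-like, 186 CPM in artery-like and 169 CPM in gCap-like barcodes, the last 2 with overlapping intervals. At 6 h the levels were 821, 516, 388 and 274 CPM in the same order, and at 30 h 308, 260, 68.3 and 75.7 CPM. Every class was thus above control at 6 h and below it at 30 h. The 6 h log2 ratio was 1.06 (0.92 to 1.20) in artery-like, 0.69 (0.66 to 0.73) in gCap-like, 0.36 (0.30 to 0.43) in vein-like and 0.35 (0.31 to 0.39) in aCap-like barcodes. The artery-like ratio exceeded the vein-like one by 0.70 (0.54 to 0.85), while aCap-like and vein-like ratios differed by -0.01 (-0.09 to 0.06). The droplets with 10 to 100 UMIs stood at 189, 278 and 117 CPM. At 30 h they were above the gCap-like and artery-like levels beyond counting error. In control they were above both, and at 6 h above the gCap-like level, with overlapping intervals. The part of free RNA in these values was not tested. At 2000 UMIs, 29.5% of all control ECs, 35.6% of 6 h ECs and 18.5% of 30 h ECs had an Icam1 UMI, beside 17.4%, 19.4% and 7.32% of barcodes under the endothelial gate.

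**Figure D3:**
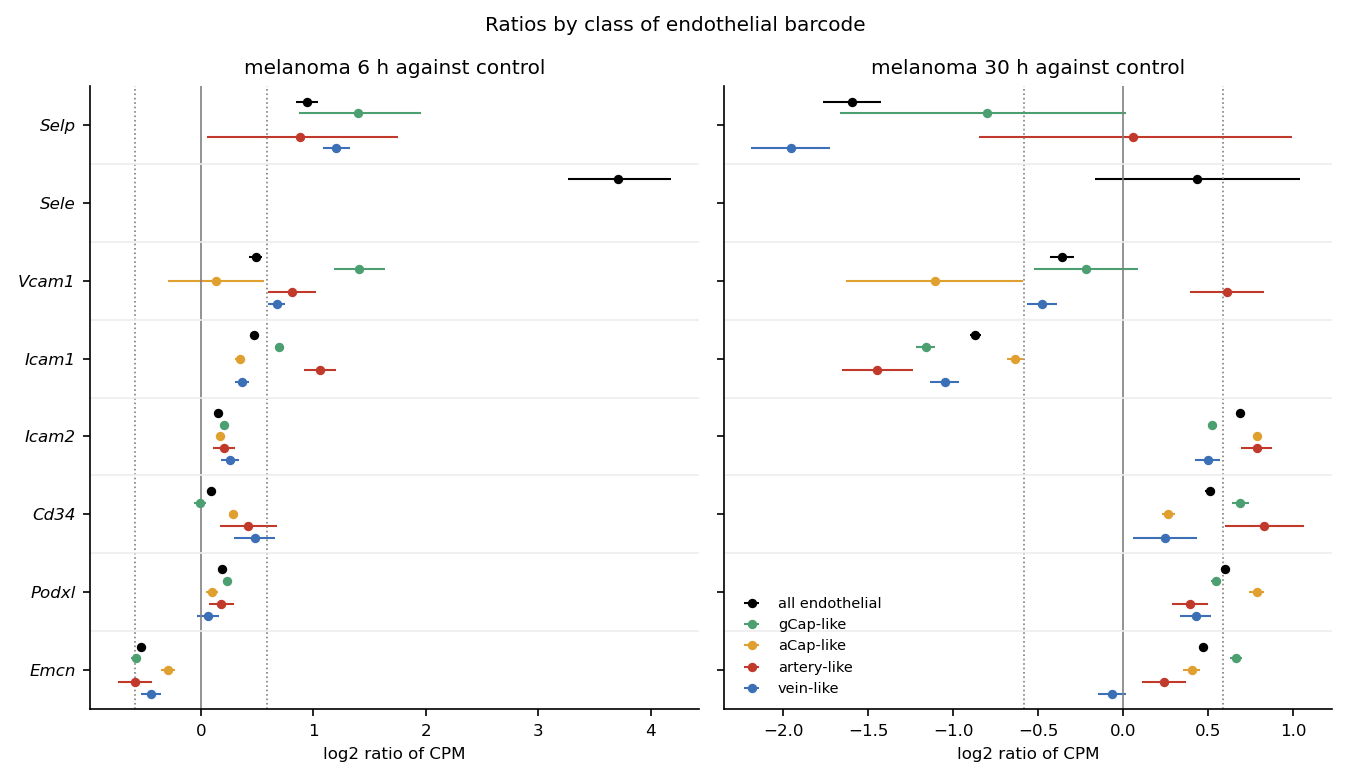
Log2 ratio of CPM to the control library (x axis) for each gene (y axis), in all endothelial barcodes and by vessel class (colors), at 6 h (left) and 30 h (right), with exact binomial intervals as lines and 1.5-fold as dotted lines. Icam1 lies right of 0 in every class at 6 h and left of 0 in every class at 30 h, and Icam2 and Podxl lie right of 0 in every class at 30 h.

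Icam2 and Cd34 were highest in aCap-like barcodes. Icam2 stood there at 1083, 1215 and 1868 CPM, against 556, 641 and 798 CPM in gCap-like barcodes. In control barcodes the vein-like and artery-like levels, 455 and 453 CPM, had overlapping intervals. The 30 h ratio of Icam2 to control was 1.72-fold in aCap-like and artery-like, 1.44-fold in gCap-like and 1.41-fold in vein-like barcodes. Cd34, the stem cell and capillary antigen, stood at 530, 647 and 636 CPM in aCap-like and 109, 109 and 176 CPM in gCap-like barcodes. Its 30 h ratio was 1.61-fold in gCap-like, 1.78-fold in artery-like, 1.20-fold in aCap-like and 1.18-fold in vein-like barcodes. In control, 6 h and 30 h droplets that hold free RNA, Icam2 stood at 866.6, 939.2 and 1050 CPM and Cd34 at 221.2, 249.2 and 299.6 CPM. In every library the gCap-like, artery-like and vein-like levels of both genes lay below these beyond counting error, and the aCap-like levels lay above. The part of free RNA in the class values was not tested. Podxl differed least between classes, with control levels from 294 CPM in vein-like to 354 CPM in artery-like barcodes, where aCap-like and gCap-like intervals overlapped. Its 30 h ratio ran from 1.31-fold in artery-like to 1.72-fold in aCap-like barcodes.

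Emcn was highest in vein-like barcodes of the control library, at 456 CPM, followed by aCap-like and artery-like barcodes (266 and 259 CPM, with overlapping intervals) and gCap-like barcodes (221 CPM). At 6 h it was lower in all 4 classes, by 0.58 on the log2 scale in both gCap-like and artery-like, 0.45 in vein-like and 0.29 in aCap-like barcodes. At 30 h the classes parted. The log2 ratio to control was 0.66 (0.63 to 0.70) in gCap-like and -0.07 (-0.15 to 0.01) in vein-like barcodes, a difference of 0.73 (0.64 to 0.81). At 2000 UMIs, 34.1%, 24.8% and 43.5% of all ECs had an Emcn UMI.

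Counts past 1.5-fold by class were again set beside all genes of that class with a mean of at least 5 CPM. In gCap-like barcodes 6 members passed the filter. Vcam1 and Icam1 were higher at 6 h (2.45% of genes) and none was lower (1.35%), while at 30 h Cd34 and Emcn were higher (5.05%) and Icam1 was lower (5.31%). Of 5 members in aCap-like barcodes, none was higher (1.26% of genes) or lower (1.51%) at 6 h, and at 30 h Icam2 and Podxl were higher (5.74%) and Icam1 was lower (7.39%). All 8 passed in artery-like barcodes, where Selp, Sele, Vcam1 and Icam1 were higher at 6 h (9.26% of genes) and none was lower (8.06%). At 30 h Sele, Vcam1, Icam2 and Cd34 were higher there (8.22%) and Icam1 was lower (11.5%), with Sele resting on 9 and 19 UMIs. In vein-like barcodes Selp, Sele and Vcam1 of 8 were higher at 6 h (3.72% of genes) and none was lower (3.41%). At 30 h Sele was higher there (5.91%, from 8 and 18 UMIs) and Selp and Icam1 were lower (7.77%). Sele in artery-like and vein-like barcodes and Vcam1 in gCap-like barcodes reached 5 CPM at 6 h alone. They passed the filter only through that library, so their 6 h calls are given as a description. In the 30 h calls of Sele, both compared levels lay under 5 CPM. At 6 h, gCap-like Vcam1 and Icam1 and artery-like Selp lay below their levels in the droplets with 10 to 100 UMIs. For Icam1 and Selp the intervals overlapped. At 30 h, gCap-like Cd34 and Icam1 and artery-like Icam2, Cd34 and Icam1 lay below their droplet levels beyond counting error. The part of free RNA in all these calls was not tested. Outside the vein-like class, the counts of 0 lower at 6 h turned on Emcn, whose log2 ratio lay at the 1.5-fold line in artery-like barcodes (-0.58, from -0.66 to -0.35 over 6 alternatives) and close to it in gCap-like barcodes (-0.60 to -0.56). In aCap-like barcodes Emcn ranged from -0.996 to -0.22 and Icam1 from 0.32 to 1.03, both past 1.5-fold only without barcodes that held RNA of other cells, Hopx counted. At 30 h, the calls that fell under 1.5-fold in at least 1 alternative were Emcn in gCap-like (to 0.54), Icam2 and Podxl in aCap-like (to 0.52 and 0.51) and Sele and Vcam1 in artery-like barcodes (to 0.47 and 0.29). Other ratios at 30 h rose past it in at least 1 alternative. These were Icam2 and Podxl in gCap-like (to 0.65 and 0.62), Cd34 in aCap-like (to 0.60) and Selp in artery-like barcodes (to 1.11). At 6 h, Cd34 in vein-like barcodes did so (to 0.74).

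Vein-like barcodes with a Selp UMI also held more Vcam1 and Icam1 than those without. Vcam1 stood at 935 against 316 CPM in the control library (109 and 511 barcodes), 1405 against 420 CPM at 6 h (121 and 355) and 619 against 256 CPM at 30 h (69 and 419). Icam1 followed, at 973 against 556 CPM, 1181 against 679 CPM and 426 against 285 CPM. Emcn was higher with Selp in control, 629 against 413 CPM, and at 6 h, 508 against 267 CPM. Icam2 was lower with Selp in each library, at 405 against 467 CPM, 480 against 569 CPM and 513 against 667 CPM. Barcodes with Selp were deeper, with medians of 10998, 11477 and 11856 UMIs against 9591, 9791 and 9934, and the part of depth in these differences was not tested. In both groups of vein-like barcodes Icam1 was lowest at 30 h.

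**Figure D4:**
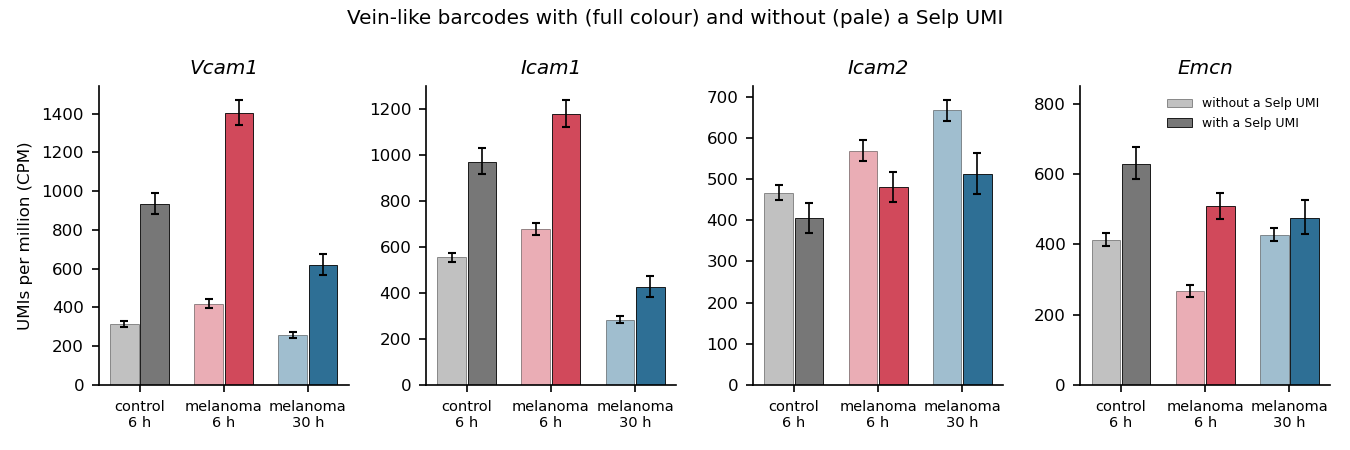
CPM (y axis, from 0) of Vcam1, Icam1, Icam2 and Emcn in vein-like barcodes without (pale bars) and with (full colors) a Selp UMI, by library (x axis), with exact Poisson intervals. Vcam1 and Icam1 are higher with Selp in all 3 libraries and Icam2 is lower.

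Most of the few barcodes with Sele at 6 h carried Icam1 as well, and barcodes with Sele were deeper. Their median depths were 8876 against 7523 UMIs in gCap-like, 12322 against 8950 UMIs in artery-like and 12194 against 10105 UMIs in vein-like barcodes, and the part of depth was not tested. The 49 gCap-like barcodes with Sele had Icam1 at 879 CPM against 269 CPM in the others. The 15 artery-like barcodes with Sele had it at 1014 against 354 CPM. An Icam1 UMI was found in 39 of the 49, in all 15 and in 11 of the 12 vein-like barcodes with Sele. In barcodes without Sele the shares were 57.7%, 62.5% and 88.6%. Of the 396 Icam1 UMIs in the 49, 104 came from 1 barcode. In the 12 vein-like barcodes with Sele, Selp stood at 1219 against 304 CPM and Vcam1 at 1844 against 665 CPM. Of these 12, 8 had a Selp UMI, and 73 of their 166 Selp UMIs came from 1 barcode. Podxl was lower in these 12, at 176 against 310 CPM. A gCap-like barcode with UMIs of all of Pim3, Bcl3 and Tmem252, genes the study uses to mark reactive capillary ECs, is called triple-positive here. Such barcodes numbered 252 in control, 784 at 6 h and 224 at 30 h. Their Icam1 level was 256, 373 and 132 CPM against 165, 258 and 72.7 CPM in other gCap-like barcodes. In triple-positive barcodes too, Icam1 at 30 h was below its control level. Vcam1 at 6 h stood at 21.1 against 9.08 CPM (163 and 431 UMIs) and Sele at 6.87 against 3.16 CPM (53 and 150 UMIs). Single gCap-like barcodes at 6 h held 146 Vcam1 and 29 Sele UMIs. Whether those barcodes were triple-positive was not examined, so these differences may rest on them. Both Vcam1 levels lay under the 57.6 CPM of the droplets with 10 to 100 UMIs, and the part of free RNA was not tested. Triple-positive barcodes were deeper, with medians of 9284, 9284 and 9852 UMIs against 7057, 7299 and 7830.

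Platelet-RNA barcodes, which were kept apart because platelets carry Selp, had Selp at 6.73 CPM in control, 21 CPM at 6 h and 4.86 CPM at 30 h, from 25, 98 and 20 UMIs. Of the 98 UMIs at 6 h, 21 lay in gCap-like and 3 in aCap-like barcodes, which were 397 and 84 of the 522. The 6 h level thus rested mostly on the few barcodes outside the capillary classes. Among gCap-like platelet-RNA barcodes Selp stood at 6.18, 6.23 and 6.26 CPM, from 17, 21 and 17 UMIs, above the other gCap-like barcodes and level across the libraries. Icam1 in all platelet-RNA barcodes stood at 183, 290 and 96.7 CPM and Emcn at 225, 158 and 307 CPM, the same order as in ECs. Keeping these barcodes in moved the 6 h log2 ratio of Selp from 0.94 to 0.96.

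Other genes of leukocyte adhesion came from 6 lists with 40 genes, of which 39 were found by symbol (Cd99 was not) and 28 passed the filter. At 6 h, Mcam, an adhesion protein of endothelial junctions, was higher at 205 against 119 CPM and B3gnt3, an enzyme that extends the glycans L-selectin binds, at 30.3 against 18.1 CPM. Rab27a, which helps anchor the granules that store P-selectin, was lower at 59.0 against 91.8 CPM. At 30 h Mcam (189 CPM) and Nectin2, a junctional protein, at 7.68 against 4.99 CPM, were above control. Nectin2, at 4.61 CPM at 6 h, reached 5 CPM at 30 h alone. It passed the filter only through that library, so its calls are given as a description. Alcam, a homophilic adhesion molecule, at 5.97 against 10.4 CPM, and Il4ra, the receptor chain for a cytokine that induces Vcam1, at 93.3 against 152 CPM, were below it. From 6 h to 30 h, Chst2, a sulfotransferase for selectin ligands, and Nectin2 were higher, at 1.54-fold and 1.67-fold, and Alcam, Il4ra and the TNF receptor Tnfrsf1a were lower, at 0.635, 0.461 and 0.610 of the 6 h level.

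The counts of listed genes past 1.5-fold stand beside 2.08% of all genes higher and 1.38% lower at 6 h, 4.88% and 5.0% at 30 h, and 5.25% and 5.23% from 6 h to 30 h. By list, none of the 5 junctional genes (median log2 ratio 0.09 at 6 h and 0.07 at 30 h) and none of the 5 membrane anchors (-0.06 and -0.01) passed 1.5-fold in any comparison. Of 4 genes stored or trafficked with P-selectin, 1 was lower at 6 h and none differed by that size at 30 h, with medians of -0.47 and -0.32. Vwf, the main cargo of the same granules, stood at 303, 232 and 288 CPM. In vein-like barcodes it stood at 2446, 2155 and 2617 CPM, so at 30 h it was above control there and below it over all ECs. The medians by list are over all ECs, and the part of class shares in them was not tested. Of 3 selectin ligand genes past the filter, 1 was higher at 6 h and none at 30 h. Of 6 other surface proteins 1 was higher at 6 h, and 2 were higher and 1 lower at 30 h. Those 2 include Nectin2, which passed the filter only through the 30 h library. The 5 cytokine receptors had medians of 0.27 at 6 h and -0.23 at 30 h, and Il4ra was the 1 past 1.5-fold against control. From 6 h to 30 h, 2 of them, Il4ra and Tnfrsf1a, were lower by that size. Glycam1 had 0 UMIs and Madcam1 and Chst4 1 each, all in the control library.

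**Figure D5:**
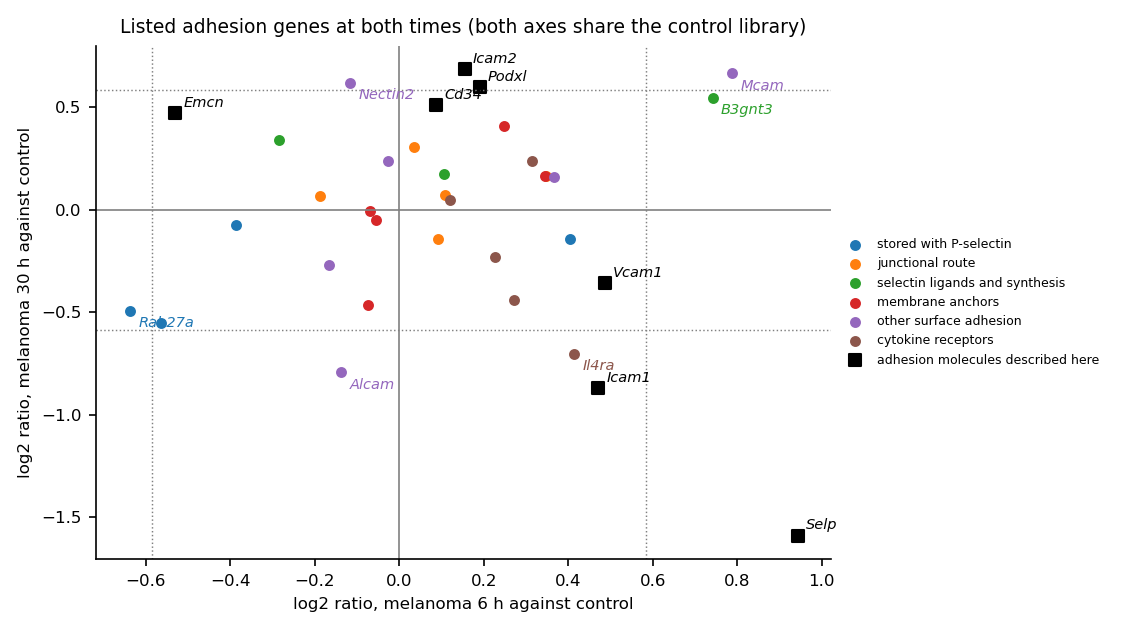
Log2 ratio of CPM at 30 h (y axis) against that at 6 h (x axis), each to the same control library, for the 28 listed adhesion genes (colored by list) and 7 of the 8 members (black squares, Sele not shown), with 1.5-fold as dotted lines. Selp and Icam1 lie at lower right, Emcn at upper left, and Mcam and B3gnt3 at upper right.

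Across the 12 profiles of 4 classes in 3 libraries, Selp and Vcam1 varied together (Pearson r = 0.94 of log2(CPM + 1)), as did Icam2 and Cd34 (r = 0.94). These profiles share libraries, depth and class, and r is given as a description. Among 8158 genes, the nearest to Selp was Casp1 (r = 0.99), an inflammatory protease, followed by Ssh1 and Mgat4a, and the nearest to Vcam1 were Klhl6 (r = 0.98), Casp12 and Tshz2. Sele was nearest to Zfp979 (r = 0.92), Ralb and Tuba1c, and Icam1 to Tob1 (r = 0.95), Il10rb and Golph3. For the genes that were highest at 30 h, the nearest were Sf3b5 (r = 0.98), Crlf2 and Rnasek for Icam2, Ccdc184 (r = 0.99), Scrn1 and Chmp1b for Cd34, and Ppm1f (r = 0.99), Cep41 and Pdap1 for Podxl. Emcn was nearest to Fkbp7 (r = 0.92), Gm2a and Klk8. Genes needed at least 20 CPM in 1 profile. Casp1 reached this only in vein-like barcodes at 6 h, Zfp979 and Tuba1c only in 6 h profiles, and Cep41 only in aCap-like barcodes at 30 h. These 4 entered only through profiles where their member was high, so their r is no independent sign of a link.

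The annotation places gene models on the opposite strand over Selp (Gm16587, typed as antisense, and Gm16548, typed as a long intergenic RNA), and models typed as antisense over Vcam1 (Gm43109), Icam1 (Gm47079) and Cd34 (Gm16897). Their UMIs over the 3 libraries came to 17, 8, 26, 384 and 465. Strand use in the counting is not given in the sources used here. Gm47079 held 135 UMIs in control, 196 at 6 h and 53 at 30 h, few beside the 22901, 30124 and 11119 of Icam1.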

How the data were processed

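Single-cell 3′ libraries (Chromium, v2 kit per the labels) of 1 control, 1 6 h and 1 30 h sample were analysed from the deposited UMI counts per gene and barcode. The authors made these counts, per the submitters' processing notes, with Cell Ranger 7.2.0 on mm10 and used Seurat 4.4.0 downstream. Total counts were 140601123, 132566934 and 124085451 UMIs. The files listed 1911655, 1792904 and 1895479 barcodes, and the kit named in the labels was not checked against them. The counts were unfiltered and not normalized, and no normalized or annotated table was used here. Whether intronic reads were counted is not given in the sources used here.

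UMIs were read with Python 3.11.15, pandas 2.3.3 and scipy 1.17.1, filtered as described above and summed per library and class. CPM is UMIs of a gene per 1000000 UMIs of the sum. A class needed at least 3 UMIs over at least 2 of its gate markers, barcodes of several classes were mixed, and gCap-like barcodes passed no other vessel gate. Levels carry exact Poisson intervals, ratios exact conditional binomial intervals without pseudocount, and shares exact Clopper-Pearson intervals. Medians over the members and over all genes used log2 ratios of CPM + 1. Medians by list used ratios without pseudocount. Differences between classes in log2 ratio carry normal intervals of the log counts. With 1 library per group no p-value was computed, and 1.5-fold stood in for a test. The scripts were tested on simulated data.

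The libraries shared 35 (control and 6 h), 34 (control and 30 h) and 18 (6 h and 30 h) endothelial barcodes, at most 0.387% of the smaller library. Doublets were kept in, and an alternative took out the highest Scrublet scores (scanpy 1.11.5; 9.20%, 8.74% and 7.61% of barcodes). Scaling alternatives used TMM factors (edgeR 4.0.16) and median-of-ratios size factors. Removal of the highest barcode, and of barcodes with RNA of other cells with Hopx not counted or by class, were alternatives chosen after seeing the data, as was doublet removal by class.

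Genes named were the 8 members, listed adhesion genes past 1.5-fold over all ECs (at most 3 per list), and for each member the 3 genes of highest Pearson r among genes with at least 20 CPM in 1 profile. Vwf, Glycam1, Madcam1, Chst4, the opposite-strand models and the genes of the triple-positive gate were named after their values were seen. The members and lists were chosen with earlier results of these data known. Gene positions are from the GENCODE M21 annotation and promoters from RefSeq. A comparison of member proteins was planned and is not reported here.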

Additional observations from a re-analysis of the deposited data

Results flagged for a closer look

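Vcam1 at 30 h moved in opposite directions against control between vessel classes. Its log2 ratio was 0.61 in artery-like barcodes, -1.10 in aCap-like barcodes (99 and 48 UMIs) and -0.48 in vein-like barcodes. The aCap-like levels, 4.89 and 2.28 CPM, lay under the 36.5 and 39.4 CPM of droplets with 10 to 100 UMIs, and the part of free RNA in them was not tested. The aCap-like ratio minus the artery-like one was -1.71, and the artery-like ratio minus the vein-like one was 1.09. These differences were not tested, since each group is 1 library, and 154 of the 537 artery-like Vcam1 UMIs at 30 h came from 1 barcode. Of the 99 aCap-like control UMIs, 30 also came from 1 barcode. Without the highest barcode of each library the artery-like ratio was 0.29, and the aCap-like levels were 3.41 CPM in control and 2.09 CPM at 30 h. Over 5 alternatives the aCap-like ratio ranged from -1.45 to -0.64.

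Cd34 from 6 h to 30 h was higher in gCap-like and artery-like barcodes, with log2 ratios of 0.69 and 0.41, and lower in vein-like barcodes, at -0.23. The gCap-like ratio exceeded the vein-like one by 0.93 and the artery-like ratio exceeded it by 0.64, and neither difference was tested. The droplets that hold free RNA had Cd34 at 249.2 CPM at 6 h and 299.6 CPM at 30 h. At both times the gCap-like, artery-like and vein-like levels lay below these beyond counting error. The part of free RNA in the class values was not tested.

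Selp was also counted in barcodes under the endothelial gate, which enter no comparison. At 6 h these 345 barcodes held 13 Selp UMIs, or 8.43 CPM (4.49 to 14.4), while 275 control barcodes held none, which allows up to 3.22 CPM. Platelet-RNA barcodes were not taken out of them, and their part in these UMIs was not tested.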

How the results depend on the processing

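Of 24 log2 ratios of the members over all ECs, 23 kept their direction and 18 their side of 1.5-fold in all 12 alternatives. The exception in direction was Sele at 30 h against control, which ranged from -0.80 to 1.48. By class, where 2 to 6 alternatives gave a value, 54 of 63 ratios kept their direction and 43 their side of 1.5-fold in all that were run. The 1 ratio past 1.5-fold that turned was Sele in artery-like barcodes at 6 h, from 4.05 to -0.76 (6 against 9 UMIs) with barcodes that held RNA of other cells taken out, and its other 4 alternatives gave 3.04 to 4.06. That alternative took out 75.5%, 76.3% and 76.6% of ECs, because Hopx, one of its markers, averaged 5.18, 4.57 and 5.32 UMIs per EC, and with Hopx not counted it took out 16.88%, 19.99% and 19.31%.

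Counts of members past 1.5-fold are given with the share of all genes in the same setting. At 6 h, 1 member was above control (2.08% of genes). The count was 0 when 300 genes sufficed and the upper limit was lifted (2.12%), 3 without barcodes of other-cell RNA (4.09%) but 1 with Hopx not counted (2.01%), 2 with control class shares (2.06%), 2 with no filter on low values (15.0%), and 0 at 2-fold (0.462%). The 3 included Sele, as did the 2 with no filter on low values. In the main setting Sele stood at 0.516, 6.75 and 0.698 CPM in control, 6 h and 30 h ECs. Its calls here and at 30 h below are therefore given as a description. Below control at 6 h the count was 0 (1.38%), and 1 without barcodes of other-cell RNA (2.35%) but 0 with Hopx not counted (1.18%). At 30 h, 2 were above control (4.88%), and 1 with each cell weighted equally (4.86%), a different 2 (Sele and Icam2 in place of Icam2 and Podxl) without barcodes of other-cell RNA (5.64%), and 0 at 2-fold (1.01%), while 2 were below control (5.0%), and 1 at 2-fold (1.05%). For these counts the cause was not tested.

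No paired analysis was possible because each group is 1 library, and for the same reason no replicate could be left out. Shares of cells with a UMI rose with the depth kept, as thinning removes UMIs. Sele in control (45 UMIs) and Selp in capillary classes rested on few UMIs, and the part of depth in this was not tested.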

Other observations

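Barcodes above the upper limit of 5000 detected genes numbered 1261, 1030 and 936 in the control, 6 h and 30 h libraries. Of these, 242, 168 and 193 passed the gates of several vessel classes and held 627, 365 and 108 Selp UMIs, a large part of the 1117, 860 and 262 Selp UMIs found above the limit.

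Lymphatic (LEC-like) barcodes were too few to compare, and the 125 of the 3 libraries together held 294 UMIs of Icam2, 286 of Emcn, 162 of Podxl, 52 of Icam1 and 23 of Cd34. Selp and Vcam1 had 1 UMI each there and Sele had none.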
